A study of Homo sapiens with 24 samples.

Results

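The interleukin-1 (IL-1) family was followed here through 9 genes, named by symbol: the cytokines IL1A, IL1B, IL36G, IL33 and IL18, the antagonist IL1RN, and the receptor chains IL1R1, IL1R2 and IL1RAP. All 14 of their probes, of 47323 on each array, were taken from the scanner table. The rule names genes and uses no measured value, but the list was proposed with earlier results of these data known. RNA came from MCF10A, an established non-tumorigenic human mammary epithelial line, measured on Illumina BeadChip expression arrays. The stable lines carried ERBB4, a receptor tyrosine kinase, as its CYT2 or its CYT1 isoform, or an empty control vector (vector cells). The title of the series names full-length JM-a receptors, but ICD stands beside the isoform in the sample characteristics. Every line was starved of serum for 48 h. The 6 groups were CYT2 cells with the ERBB4 ligand neuregulin 1 (NRG1) for 2 h and CYT2 cells without it, then CYT1 cells with and without NRG1, then vector cells with and without NRG1. Each group held 2 biological samples, and each sample was measured on 2 arrays that were averaged, so n = 2 per group throughout. The labels do not say whether the samples came from separate cultures or whether a line is 1 clone, so the p-values cover the spread among these samples, which may be technical.

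IL-1 family cytokines carry alarm and inflammatory signals in epithelia. IL-1 alpha (IL1A) acts as an alarmin released from damaged cells, whereas IL-1 beta (IL1B) and IL-18 (IL18) are made as precursors that inflammatory caspases cleave. IL-36 gamma (IL36G) is a cytokine of stratified epithelia and IL-33 (IL33) a nuclear alarmin. IL1R1 binds IL-1 and signals together with the shared co-receptor chain IL1RAP through MYD88 to NF-kB and the MAP kinases. IL1RN, the IL-1 receptor antagonist, occupies IL1R1 without signalling, and IL1R2 is a decoy receptor that binds IL-1 without passing the signal on. ERBB4 binds neuregulins directly, and its CYT1 isoform has a stretch in the cytoplasmic tail, absent from CYT2, that can recruit phosphatidylinositol 3-kinase.

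In RefSeq's annotation of GRCh38.p14, 6 of the 9 genes lie on chromosome 2: IL1A (112773925 to 112784493, minus strand), IL1B (112829751 to 112836779, minus strand), IL36G (112978006 to 112985658, plus strand), IL1RN (113099360 to 113134014), IL1R2 (101991960 to 102028544) and IL1R1 (102070390 to 102179874). IL1RAP lies on chromosome 3 (190514085 to 190659750), IL33 on chromosome 9 (6215149 to 6257983) and IL18 on chromosome 11 (112143260 to 112164094). The upstream sequences below belong to the cytokine genes that rose with NRG1 in CYT2 cells, and each is the 250 bases before the outermost RefSeq start on the gene's own strand. The windows are chr2:112784494-112784743 (minus) for IL1A, chr2:112836780-112837029 (minus) for IL1B, chr2:112977756-112978005 (plus) for IL36G and chr9:6214899-6215148 (plus) for IL33. Capitals mark a match to the AP-1 motif TGANTCA.
IL1A: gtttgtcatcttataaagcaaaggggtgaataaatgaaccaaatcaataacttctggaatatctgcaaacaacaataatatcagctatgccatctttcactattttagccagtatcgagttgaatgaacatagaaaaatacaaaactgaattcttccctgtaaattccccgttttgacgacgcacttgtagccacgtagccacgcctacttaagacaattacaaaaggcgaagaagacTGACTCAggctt
IL1B: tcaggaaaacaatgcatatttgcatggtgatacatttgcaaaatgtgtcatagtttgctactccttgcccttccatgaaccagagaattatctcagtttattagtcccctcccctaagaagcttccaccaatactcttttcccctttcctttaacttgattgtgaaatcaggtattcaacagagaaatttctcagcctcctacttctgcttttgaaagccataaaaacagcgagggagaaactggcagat
IL36G: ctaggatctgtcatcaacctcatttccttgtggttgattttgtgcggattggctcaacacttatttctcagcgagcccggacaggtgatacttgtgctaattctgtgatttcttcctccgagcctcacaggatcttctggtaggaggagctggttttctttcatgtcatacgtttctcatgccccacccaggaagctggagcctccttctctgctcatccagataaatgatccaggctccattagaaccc
IL33: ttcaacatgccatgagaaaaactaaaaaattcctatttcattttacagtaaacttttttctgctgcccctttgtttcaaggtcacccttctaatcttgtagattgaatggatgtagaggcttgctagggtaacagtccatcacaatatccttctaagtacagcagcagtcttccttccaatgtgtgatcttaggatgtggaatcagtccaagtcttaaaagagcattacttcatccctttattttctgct
Windows were searched on both strands for TGANTCA (AP-1), where N is any base, and for an NF-kB motif of GGG, any 3 bases and TTCC. The motifs share no overlapping match in these windows. Such windows were held for 8 of the 9 genes, IL18 being the exception, 16 windows in all. The AP-1 letters occurred in windows of IL1A and IL1RN, and the NF-kB letters in a window of IL1RN. Among all 35116 windows of the table, 6.57% held the AP-1 letters and 5.67% the NF-kB letters. These shares are per window, whereas the members are named by gene over all windows of a gene. They are therefore not directly comparable. In the IL1A window shown, the match TGACTCA begins 12 bases before the start, and the IL1B, IL36G and IL33 windows shown hold neither motif. A match or its lack describes these letters only.

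Values are background-corrected, quantile-normalized log2 intensities. A difference of 1 on this scale is a 2-fold change, and a gene was called where its Benjamini-Hochberg adjusted p in limma, over all 12357 genes tested, was under 0.05. Between 18745 and 20370 probes were detected per array (detection p under 0.05), and the median scanner signal ran from 114 to 126.3 units. The samples of a group differed by a root mean square of 0.158 to 0.255 log2 units over genes. The largest values were 0.255 in CYT1 cells with NRG1 and 0.243 in vector cells without NRG1. For family members, results on CYT1 cells with NRG1 are also given without either sample of that group. Without its sample 2, calls over all genes numbered 69 for NRG1 in CYT1 cells, against 4 with both samples, and 255 against 2 and 81 against 1 for CYT1 against vector and CYT2 cells with NRG1. Without sample 1 those counts were 0, 1 and 1. The ERBB4 probe was detected on 0 of 24 arrays and checks nothing about the lines. All 6 measured genes of the basal mammary epithelial marker list, among them KRT5, KRT14 and CDH1, were detected in every group.

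Of the 9 genes, 7 passed the filter on dim probes (detected on at least 4 of 24 arrays) and could be tested. IL1A, IL1B, IL33, IL18, IL1RN and IL1RAP were detected on all 24 arrays and IL36G on 22, its gaps being 2 of the 4 arrays of CYT2 cells without NRG1. IL1R1, the signalling receptor for IL-1, was detected on 3 of 24 arrays, 1 each in CYT1 cells with NRG1, CYT1 cells without it and vector cells without it. IL1R2, the decoy, was detected on 0 of 24 arrays. No fold is given for either receptor, since their signals were at or near background in every group. Among the extra probes, 1 of IL33, 2 of IL1RN and 1 of IL1RAP were detected on 0 of 24 arrays, and the results for IL33 and IL1RN rest on their remaining probe.

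**Figure D1:**
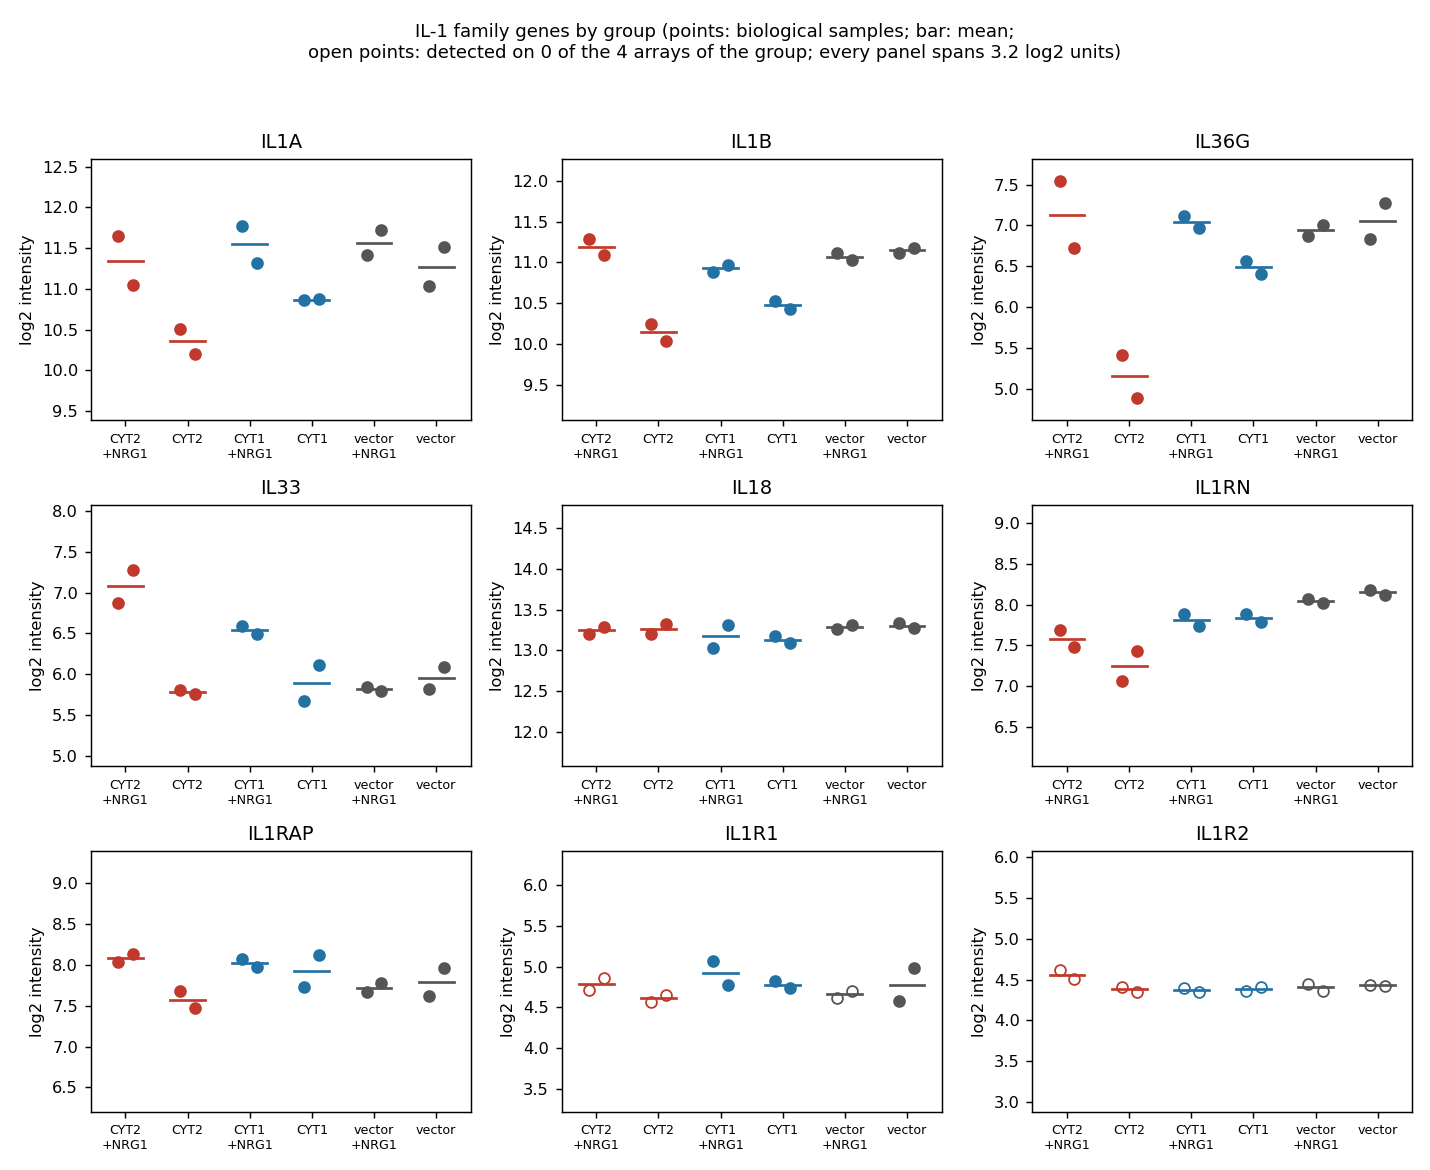
Log2 intensity of each IL-1 family gene (y axis) in each biological sample (points) of the 6 groups (x axis), with the group mean as a bar; every panel spans the same number of log2 units, and open points mark groups in which the gene was detected on 0 of 4 arrays. IL36G, IL1B and IL1A lie lowest in CYT2 cells without NRG1, and IL33 lies highest in CYT2 cells with NRG1.

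In CYT2 cells 4 cytokine genes of the family rose after 2 h with NRG1. IL36G rose 3.95-fold, IL33 2.45-fold, IL1B 2.06-fold and IL1A 1.98-fold, and no member fell past the threshold. These are 4 of 7 tested members, where 1.36% of all genes tested rose past the threshold in the same comparison. An unadjusted p under 0.05 was reached by 6 of 7 members and by 11.4% of all genes. The median log2 change of the 7 members was 0.99, against -0.02 over all genes. Since the list was proposed with such results known, its count is a description. All 4 calls depended on the fit of all 6 groups together. With only the 2 compared groups fitted, limma adjusted p-values were 0.054 for IL1B and IL33, 0.075 for IL36G and 0.12 for IL1A. The standard errors in that smaller fit were 0.11 for IL1B, 0.14 for IL33, 0.29 for IL36G and 0.21 for IL1A.

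IL36G had log2 intensities of 7.54 and 6.72 in CYT2 cells with NRG1, against 5.41 and 4.88 in CYT2 cells without it. Both samples with NRG1 lay above both samples without it, and the difference of means was 1.98 ± 0.24 (SE of the fit, n = 2 against 2, limma adjusted p = 0.00155). The groups did not overlap for 48.6% of all genes in this comparison. On the scanner's scale, before background correction, the mean signal was 250.2 units with NRG1 and 128 units without it, the second being close to the median signal of the arrays. The size of this change therefore depends on the background correction, and without that step the log2 change was 0.86, still past the threshold.

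IL33 had log2 intensities of 6.87 and 7.28 in CYT2 cells with NRG1, against 5.81 and 5.76 in CYT2 cells without it. The groups did not overlap, and the samples without NRG1 lay within 0.05 log2 units of each other. The log2 change was 1.29 ± 0.16 (adjusted p = 0.00195, limma), and 0.61 without background correction, also past the threshold. Mean scanner signals were 241.2 units with NRG1 and 145.9 units without it.

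IL1B had log2 intensities of 11.29 and 11.09 in CYT2 cells with NRG1, against 10.25 and 10.04 in CYT2 cells without it. This brighter probe gave a change of 1.04 ± 0.11 (adjusted p = 6.83e-04, limma), with no overlap between the groups. IL1A had 11.65 and 11.04 in CYT2 cells with NRG1, against 10.51 and 10.20 in CYT2 cells without it. Its change of 0.99 ± 0.22 (adjusted p = 0.043, limma) was close to the threshold. The call for IL1A was kept under 5 of 12 other settings and when 5 of 12 samples were left out in turn, with adjusted p-values up to 0.42. It was lost without CYT2 sample 1 or 2, without sample 1 of CYT2 cells with NRG1, without either sample of CYT1 cells and without either sample of vector cells with NRG1, and also with the replicate number as a block.

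**Figure D2:**
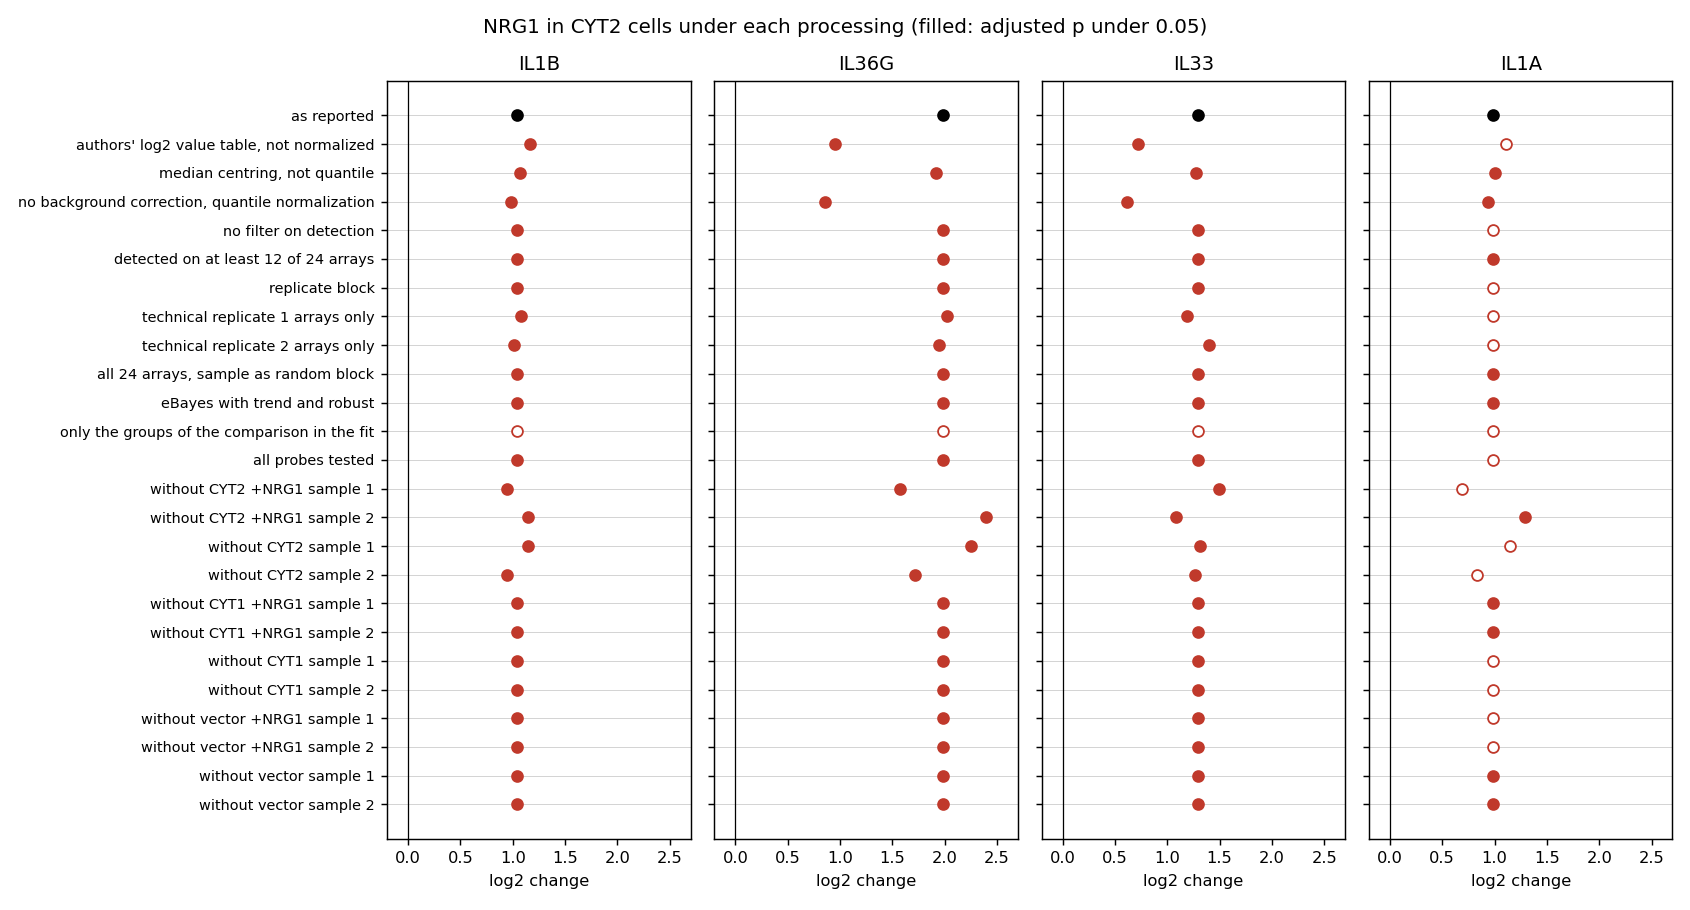
Log2 change with NRG1 in CYT2 cells (x axis) for IL1B, IL36G, IL33 and IL1A under each alternative processing or left-out sample (y axis); filled points passed an adjusted p under 0.05, and black points are the values reported. All values lie above 0, IL36G and IL33 move toward 0 without background correction, and IL1A loses its call most often.

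IL18, IL1RN and IL1RAP did not pass the threshold in CYT2 cells. IL18 averaged 13.25 with NRG1 and 13.26 without it, a difference of -0.02 ± 0.11 whose 95% interval ran from -0.25 to 0.22. IL1RAP had 8.04 and 8.13 in CYT2 cells with NRG1, against 7.47 and 7.68 in CYT2 cells without it. The groups did not overlap, the difference was 0.51 ± 0.15 (adjusted p = 0.13, limma), and a dimmer detected probe of IL1RAP gave 0.25 ± 0.12. IL1RN ranged from 7.48 to 7.69 with NRG1 and from 7.06 to 7.43 without it, a difference of 0.34 ± 0.13 (adjusted p = 0.31, limma). Groups that do not overlap are common at this sample size, at 48.6% of all genes in this comparison.

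In CYT1 cells no member passed the threshold after NRG1, where 0.0324% of all genes passed it. An unadjusted p under 0.05 was reached by 4 of 7 members and by 7.55% of all genes, and the members' median log2 change was 0.45. IL1A had a difference of 0.68 ± 0.22 (limma adjusted p = 0.47), IL33 of 0.65 ± 0.16 (adjusted p = 0.31), IL36G of 0.56 ± 0.24 (adjusted p = 0.65) and IL1B of 0.45 ± 0.11 (adjusted p = 0.31). For each of these 4 genes both samples with NRG1 lay above both without it, where the groups did not overlap for 34.1% of all genes. IL33 had 6.59 and 6.49 in CYT1 cells with NRG1, against 5.67 and 6.11 in CYT1 cells without it. Without sample 1 of CYT1 cells with NRG1 the differences were 0.45 for IL1A, 0.60 for IL33, 0.48 for IL36G and 0.49 for IL1B. Without sample 2 they were 0.91 for IL1A (adjusted p = 0.10, limma), 0.70 for IL33 (adjusted p = 0.11), 0.63 for IL36G and 0.41 for IL1B (adjusted p = 0.13). No member was called either way. IL1RAP, IL18 and IL1RN differed by 0.10, 0.04 and -0.03.

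In vector cells NRG1 moved no member past the threshold, as was the case for all genes (0%). At an unadjusted p under 0.05, 0 of 7 members were counted, against 4.05% of all genes. IL1A had 11.41 and 11.72 in vector cells with NRG1, against 11.03 and 11.51 in vector cells without it, and these ranges overlap. Its difference of 0.29 ± 0.22 had a 95% interval from -0.18 to 0.77. The other 6 members differed by -0.14 to -0.01.

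**Figure D3:**
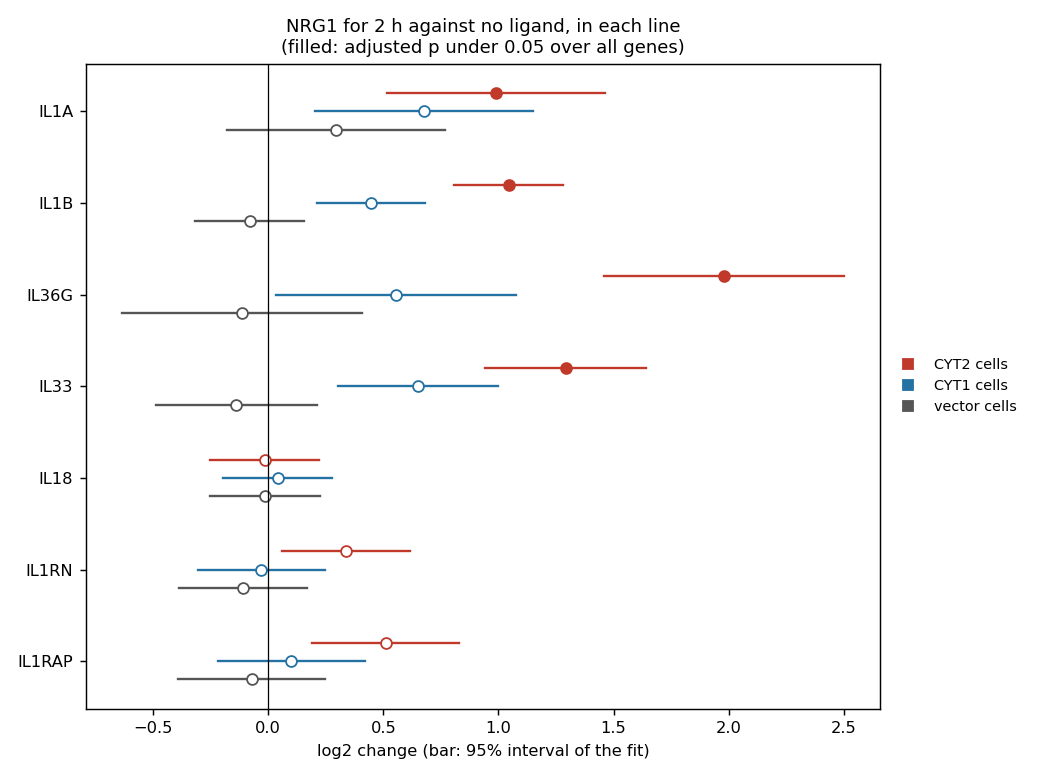
Log2 change with NRG1 (x axis) for the 7 tested IL-1 family genes (y axis) in CYT2, CYT1 and vector cells; bars are 95% intervals of the fit, and filled points passed an adjusted p under 0.05. The filled points are IL1A, IL1B, IL36G and IL33 in CYT2 cells.

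The difference between the NRG1 changes of CYT2 and vector cells was tested directly. It passed the threshold for 3 members, where 0.218% of all genes passed it in the higher direction. It was 2.10 ± 0.34 log2 units for IL36G (adjusted p = 0.027, limma), 1.43 ± 0.23 for IL33 (adjusted p = 0.025) and 1.13 ± 0.15 for IL1B (adjusted p = 0.011). IL1A, with 0.69 ± 0.31 (adjusted p = 0.58), IL1RAP, with 0.58 ± 0.21 (adjusted p = 0.43), and IL1RN, with 0.45 ± 0.18 (adjusted p = 0.52), did not pass. At an unadjusted p under 0.05, 6 of 7 members were counted, against 8.29% of all genes. The calls depended on which samples were in the fit. Of 12 samples left out in turn, the call was kept for 4 with IL36G, 6 with IL33 and 7 with IL1B. The difference itself then ran from 1.685 to 2.51 for IL36G, 1.23 to 1.64 for IL33 and 1.02 to 1.23 for IL1B. The count was 0 without CYT2 sample 2, without vector sample 2 or without either NRG1-treated vector sample, and 1 without vector sample 1 or without sample 1 of CYT2 cells with NRG1. IL36G alone lost its call without either sample of CYT1 cells with NRG1, and IL33 alone without sample 2 of CYT2 cells with NRG1. Without background correction the difference was 0.93 for IL36G, no longer past the threshold, and 0.67 for IL33, still past it.

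For CYT1 against vector cells the difference of the NRG1 changes passed for 0 members and 0% of all genes, with 0.79 ± 0.23 for IL33 and 0.53 ± 0.15 for IL1B (adjusted p = 0.79 each, limma). At an unadjusted p under 0.05, 2 of 7 members were counted, against 5.94% of all genes. For CYT1 minus CYT2 cells it passed for 0 members, where 0.00809% of all genes passed. The estimates were -1.43 ± 0.34 for IL36G, with a 95% interval from -2.16 to -0.69, -0.64 ± 0.23 for IL33 and -0.60 ± 0.15 for IL1B (adjusted p = 0.9998 for each, limma), and 3 of 7 members had an unadjusted p under 0.05, against 3.62% of all genes. Without sample 1 of CYT1 cells with NRG1 these differences were -1.50, -0.69 and -0.56, and without sample 2 they were -1.35, -0.59 and -0.64. For IL1A the difference from vector cells was 0.38 with both samples, 0.15 without sample 1 and 0.61 without sample 2. No member was called in either comparison when 1 of these samples was left out. The changes with NRG1 thus passed in CYT2 and not in CYT1 cells, but no difference of a family member between the isoforms passed.

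Without NRG1, 3 members were lower in CYT2 cells than in vector cells, where 1.36% of all genes were lower past the threshold. IL36G was 3.75-fold lower, IL1B 2.01-fold lower and IL1RN, the antagonist, 1.87-fold lower. The CYT2 samples without NRG1 are the same ones that serve as the baseline of the NRG1 comparison, so both sets of values rest on them. Of the 7 members, 4 had an unadjusted p under 0.05, against 16.4% of all genes. The members' median log2 difference was -0.90, against 0.01 over all genes.

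IL36G had log2 intensities of 5.41 and 4.88 in CYT2 cells without NRG1, against 6.83 and 7.28 in vector cells without NRG1. The difference was -1.91 ± 0.24 (adjusted p = 0.00261, limma), and -0.81 without background correction, still called. In the authors' uncorrected log2 values it was -0.77 and did not pass (adjusted p = 0.097). IL1B had 10.25 and 10.04 in CYT2 cells, against 11.12 and 11.18 in vector cells, a difference of -1.01 ± 0.11 (adjusted p = 0.00189, limma). IL1RN had 7.06 and 7.43 in CYT2 cells, against 8.12 and 8.19 in vector cells, a difference of -0.90 ± 0.13 (adjusted p = 0.00514, limma), and -0.59 in the authors' uncorrected values. The calls for IL1B and IL1RN held under all 12 other settings and without each of the 12 samples in turn. IL1A had 10.51 and 10.20 in CYT2 cells, against 11.03 and 11.51 in vector cells, a difference of -0.91 ± 0.22 (adjusted p = 0.056, limma), and it was called under 2 of 12 other settings and in the fits without 1 NRG1-treated sample of CYT2 or CYT1 cells. IL33, which was among the genes that rose with NRG1, differed by -0.17 ± 0.16 between CYT2 and vector cells without ligand, with a 95% interval from -0.52 to 0.18.

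CYT1 cells without NRG1 had 1 member called against vector cells, IL1B, which was 1.59-fold lower, where 0.146% of all genes were lower past the threshold. IL1B had 10.53 and 10.44 in CYT1 cells, against 11.12 and 11.18 in vector cells, a difference of -0.67 ± 0.11 (adjusted p = 0.029, limma). This call was kept under 6 of 12 other settings, and in the authors' uncorrected values the difference was -0.44. It was lost without either sample of CYT1 cells, of vector cells or of vector cells with NRG1. Of the 7 members, 3 had an unadjusted p under 0.05, against 14% of all genes. IL36G had a difference of -0.57 ± 0.24 (adjusted p = 0.32, limma), IL1A of -0.40 ± 0.22 and IL1RN of -0.31 ± 0.13 (adjusted p = 0.30).

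With NRG1 present, IL1B, IL36G and IL1A were not called against vector cells in either ERBB4 line. IL36G had 7.54 and 6.72 in CYT2 cells with NRG1, against 6.87 and 7.005 in vector cells with NRG1, ranges that overlap. Its difference was 0.19 ± 0.24, with a 95% interval from -0.33 to 0.71, and that of IL1B was 0.12 ± 0.11, with an interval from -0.12 to 0.35. IL33 was 2.40-fold higher in CYT2 cells with NRG1 than in vector cells with NRG1, and was the 1 member called, where 0.121% of all genes were higher past the threshold. It had 6.87 and 7.28 in CYT2 cells, against 5.84 and 5.79 in vector cells, a difference of 1.26 ± 0.16 (adjusted p = 0.0059, limma), and 0.60 without background correction, still called. That call was lost without sample 2 of CYT2 cells with NRG1 or sample 2 of vector cells with NRG1, with adjusted p-values up to 0.094. At an unadjusted p under 0.05, 3 of 7 members were counted in this comparison, against 9.48% of all genes. IL1RN had a difference of -0.46 ± 0.13 (adjusted p = 0.21, limma). Between CYT1 and vector cells, both with NRG1, no member passed, where 0.0162% of all genes did. IL33 came nearest, with 0.73 ± 0.16 (adjusted p = 0.16, limma), or 0.67 when sample 1 of these CYT1 cells was left out (adjusted p = 0.64) and 0.78 when sample 2 was (adjusted p = 0.072), and 1 of 7 members had an unadjusted p under 0.05, against 9.01% of all genes.

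**Figure D4:**
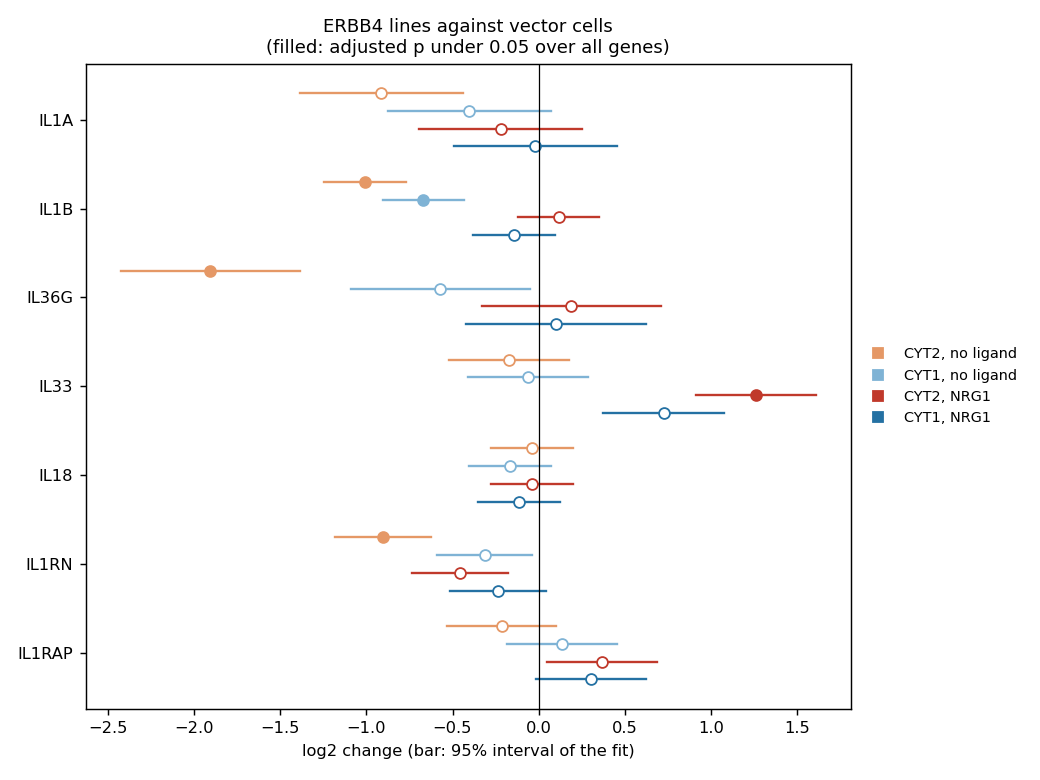
Log2 difference from vector cells (x axis) for the 7 tested IL-1 family genes (y axis), for CYT2 and CYT1 cells each set against vector cells in the same ligand state; bars are 95% intervals of the fit, and filled points passed an adjusted p under 0.05. IL36G, IL1B and IL1RN lie below vector in CYT2 cells without ligand, and IL33 lies above vector in CYT2 cells with NRG1.

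CYT1 and CYT2 cells were also set against each other. Without NRG1 no member passed, nor did any other gene (0%), and 5 of 7 members had an unadjusted p under 0.05, against 5.52% of all genes. IL36G had 6.57 and 6.40 in CYT1 cells, against 5.41 and 4.88 in CYT2 cells. That difference, 1.34 ± 0.24 with a 95% interval from 0.82 to 1.86, had the smallest p of all genes and an adjusted p of 0.77 (limma). IL1RN differed by 0.59 ± 0.13 (adjusted p = 0.77), IL1A by 0.51 ± 0.22 and IL1B by 0.34 ± 0.11. With NRG1 no member passed, where 0.00809% of all genes did, and 2 of 7 members had an unadjusted p under 0.05, against 6.57% of all genes. IL33 had 6.59 and 6.49 in CYT1 cells with NRG1, against 6.87 and 7.28 in CYT2 cells with NRG1, a difference of -0.54 ± 0.16 (adjusted p = 0.75, limma). Without sample 1 of CYT1 cells with NRG1 it was -0.59, and without sample 2 it was -0.48 (adjusted p = 0.22, limma), and no member was called either way. IL36G differed by -0.09, with an interval from -0.61 to 0.43.

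Ordered by mean level, the groups fell differently for different members. Groups of 2 samples often do not overlap. This held for 31.7% of all genes for NRG1 in vector cells and 48.9% for CYT2 against vector cells with NRG1. For IL1B the order from high to low was CYT2 with NRG1, vector, vector with NRG1, CYT1 with NRG1, CYT1 and CYT2, and only the highest neighbours in that order overlapped. The step from vector to vector with NRG1 was only -0.08 ± 0.11 and was not called. For IL36G the groups CYT2 with NRG1, vector, CYT1 with NRG1 and vector with NRG1 overlapped with their neighbours at means of 6.94 to 7.13, above CYT1 at 6.48 and CYT2 at 5.15. For IL1A the groups vector with NRG1, CYT1 with NRG1, CYT2 with NRG1 and vector overlapped at means of 11.27 to 11.56, above CYT1 at 10.87 and CYT2 at 10.36. For IL33 the order was CYT2 with NRG1 at 7.08, CYT1 with NRG1 at 6.54 and then the other 4 groups, which overlapped with their neighbours at 5.78 to 5.95. The means of IL1RN were ordered by line, with vector cells highest at 8.04 to 8.15, CYT1 cells at 7.81 to 7.84 and CYT2 cells at 7.25 to 7.58. Of the IL1RN differences between lines, only that of CYT2 against vector cells without NRG1 was called. For IL18 and IL1RAP every group overlapped with its neighbours in the order.

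The genes whose pattern over the 12 samples lay nearest to each called member, each centred on its own mean, were found by the root mean square difference of log2 values. Nearest to IL36G were SPRY4, a feedback inhibitor of receptor tyrosine kinase signalling (0.24), HBEGF, a ligand of EGFR and ERBB4 (0.25), and SPRR2D, a cornified envelope protein (0.26). Nearest to IL1A were RNF39 (0.13), the chemokine gene CXCL2 (0.15) and ITPRIP (0.16). Nearest to IL1B were FOXA1, a pioneer transcription factor (0.11), IFFO1 (0.12) and MIDN (0.13). Nearest to IL33 were the interleukin-7 receptor gene IL7R (0.25), ANGPTL4, a secreted inhibitor of lipoprotein lipase (0.26), and LRRC8C (0.27), and nearest to IL1RN were HLA-B (0.13), ADGRF4 (0.14) and CAMK2N1 (0.16). The standard deviations of the members themselves over these samples were 0.77 for IL36G, 0.49 for IL1A, 0.41 for IL1B, 0.52 for IL33 and 0.33 for IL1RN.

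Of the other IL-1 family ligands, receptors and binding proteins, 4 of 13 passed the filter: IL37, IL18BP (the IL-18 binding protein), IL18R1 (a receptor chain for IL-18) and IL1RL1 (the IL-33 receptor). None of the 4 was called in any of the 12 comparisons, and 0 had an unadjusted p under 0.05 (limma). IL1RL1 averaged 5.08 in CYT2 cells with NRG1 and 5.04 in CYT2 cells without it, and was detected on 3 of 4 arrays in each. IL1RL2, the receptor chain for IL-36 gamma, lay below the filter. Of the signalling and processing genes, 17 of 23 were tested, and 0 were called in any comparison. With NRG1 in CYT2 cells their median log2 change was 0.11, against -0.02 over all genes, and 4 of 17 had an unadjusted p under 0.05, against 11.4% of all genes. IRAK2, a kinase that acts downstream of MYD88, was named after its values were seen and averaged 7.42 in CYT2 cells with NRG1 and 6.49 without it, a difference of 0.92 ± 0.27 (adjusted p = 0.14, limma). It was picked from the 17 tested genes. Its standard deviation was 0.69 log2 units between the CYT2 samples without NRG1 and 0.32 between those with it.

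Of 25 genes listed as targets of IL-1 signalling, 21 were tested and 6 rose with NRG1 in CYT2 cells, where 1.36% of all genes rose. The median log2 change was 0.60, against -0.02 over all genes, and all 21 lay above 0 by the probe used for each gene. Another probe of the listed gene SAA1, detected on 20 of 24 arrays, gave -0.14 ± 0.17. The other extra probes of listed targets that passed the filter lay above 0. CXCL8, a neutrophil-attracting chemokine, averaged 10.43 in CYT2 cells with NRG1 and 7.47 in CYT2 cells without it, a change of 2.95 ± 0.40 (adjusted p = 0.00336, limma), and its other probe gave 2.58. MMP3, a matrix metalloproteinase, rose by 2.56 ± 0.12 (adjusted p = 3.36e-07) and TNFAIP3, an inhibitor of NF-kB signalling, by 1.57 ± 0.29 (adjusted p = 0.0154). In CYT2 cells without NRG1, MMP3 averaged 5.06 and was detected on 3 of 4 arrays. Of the other called targets, IL6 averaged 4.95 there (2 of 4 arrays) and MMP1 4.62 (0 of 4). These baselines lay at or near background, which limits the sizes of the changes measured from them. In CYT1 cells MMP3 was the 1 of 21 called, at 0.79 ± 0.12 (adjusted p = 0.0496, limma), with a list median of 0.31, where 0.0324% of all genes were called. For NRG1 in CYT1 cells 0 genes were called with the authors' values, median centring, no filter, either technical replicate alone or only the compared groups fitted. This MMP3 call was thus lost under those settings, and also when certain single samples were left out. Between the isoforms MMP3 passed, with a CYT1 minus CYT2 difference of the NRG1 changes of -1.77 ± 0.16 (adjusted p = 0.00145, limma) and a CYT1 against CYT2 difference with NRG1 of -1.39 ± 0.12 (adjusted p = 4.35e-04). With either technical replicate alone, or all 24 arrays and the sample as a random block, 0 genes were called in either comparison. Both of these MMP3 calls were lost there. With only the compared groups fitted, 0 genes were called for CYT1 against CYT2 cells with NRG1, so that MMP3 call was lost there too. In vector cells 0 of 21 were called, as of all genes (0%), and 4 had an unadjusted p under 0.05 (limma), against 4.05% of all genes, with a list median of 0.03. TNFAIP3 averaged 7.88 in vector cells with NRG1 and 7.17 without it, and CXCL8 averaged 9.93 and 9.37. By the direct test of the CYT2 minus vector difference of NRG1 changes, 1 of 21 was called, where 0.218% of all genes were called higher. CXCL8 and MMP3 were also lower in CYT2 cells than in vector cells without NRG1, by -1.89 ± 0.40 (adjusted p = 0.033) and -0.61 ± 0.12 (adjusted p = 0.022, limma). Many of these genes respond to other signals as well, and whether the cytokines of the family acted on them was not tested.

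**Figure D5:**
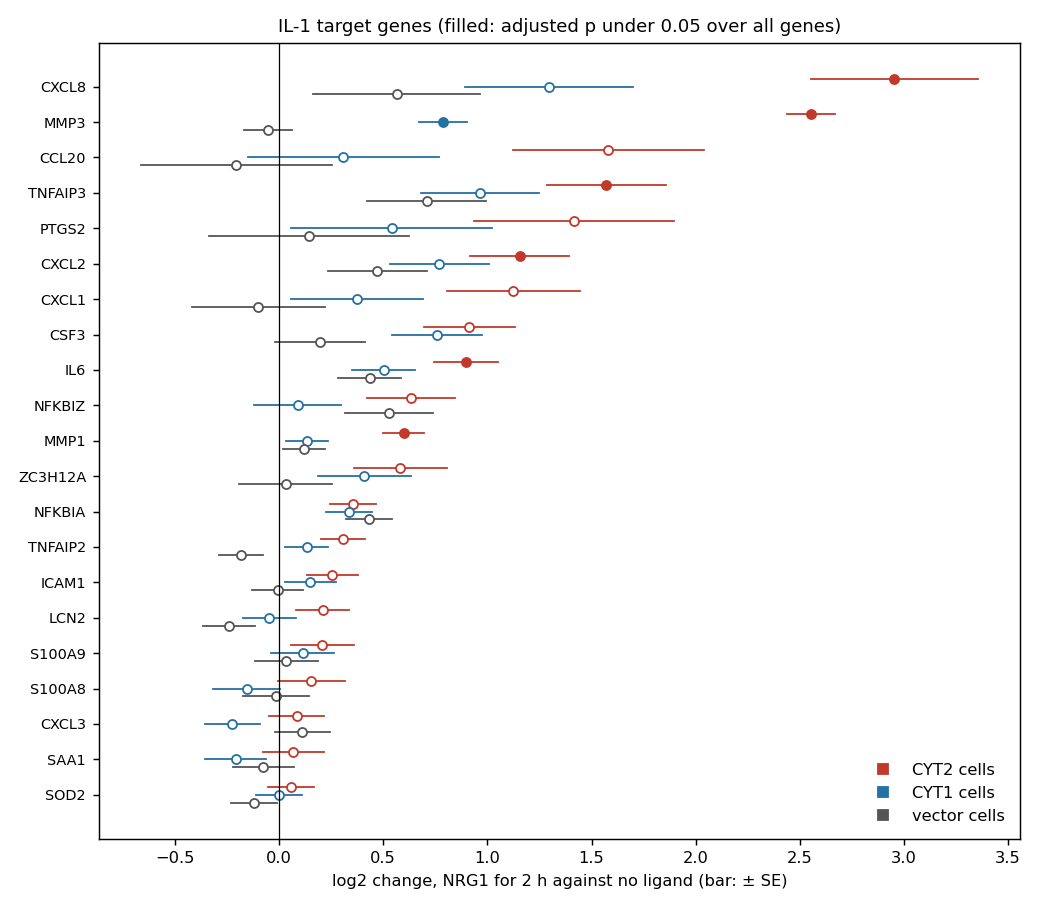
Log2 change with NRG1 (x axis) for the 21 tested genes of the IL-1 target list (y axis) in CYT2, CYT1 and vector cells; bars are ± SE of the fit, and filled points passed an adjusted p under 0.05. Filled in CYT2 cells are CXCL8, MMP3, TNFAIP3, CXCL2, IL6 and MMP1, and in CYT1 cells MMP3.

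Myeloid cells are another rich source of IL-1, so leukocyte markers were measured beside these results. The summed intensity of the 9 listed markers was 1190 to 1252 in CYT2 cells with NRG1, 1223 to 1269 in CYT2 cells without it and 1268 to 1286 in vector cells without it. PTPRC, the pan-leukocyte gene, and TYROBP were detected on 0 of 24 arrays, while AIF1, CD14, CD68 and CSF1R were detected in every group. None of the 6 tested markers was called with NRG1 in CYT2 cells, where 1.65% of all genes were called. There 0 had an unadjusted p under 0.05 (limma), against 11.4% of all genes. Such a p was reached by 2 of 6 for NRG1 in vector cells (4.05% of all genes) and for the CYT2 minus vector difference of NRG1 changes (8.29%). With NRG1, 2 of 6 reached it for CYT2 (9.48%) and for CYT1 (9.01%) against vector cells. The other comparisons had 0 or 1. Of 6 fibroblast markers, 2 were detected on at least 2 of 4 arrays in CYT2 cells with NRG1 and 3 without it, and of 4 endothelial markers 0 were detected in either. In these cultures, fewer cells expressing a gene and less RNA per cell cannot be told apart.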

How the data were processed

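RNA of 12 biological samples, 2 arrays each, was measured on Illumina BeadChips. Per the labels' protocols, biotinylated cRNA was prepared with the Illumina TotalPrep kit from RNeasy Plus extracts. The deposited scanner table holds, per the file headers, an intensity (mean bead signal) and a detection p-value per probe and array. The authors' deposited value table holds log2 values that equalled the log2 of those signals within 5e-09, with column medians of 6.83 to 6.98, so it carries no background correction or normalization. The scanner software is not given in the sources used here.

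Probes were named through the platform annotation (30113 with 1 gene symbol, 8 with several, 17202 unnamed, 30074 matched to current symbols). Background correction and quantile normalization of the intensities used the neqc function of limma 3.58.1 under R 4.3.3, with an offset of 16 and negative controls inferred from detection p-values. Probes detected at p under 0.05 on at least 4 of 24 arrays were kept (23019), and the probe with the highest mean represented each of 12357 genes. Technical arrays were averaged, and 1 model of group means was fitted to all 12 samples (lmFit and eBayes, 6 residual and 6.31 prior degrees of freedom), with Benjamini-Hochberg adjustment over all genes in each of 12 comparisons. The script was tested on simulated data. The number of arrays limits the precision.

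The members, lists and tests were chosen with earlier results of these data known. All 9 members were named, as were up to 3 called genes per list and the 3 genes nearest in pattern to each called member. Listed genes named outside that rule include IRAK2, IL6 and MMP1. Alternatives covered normalization, background correction, the filter, probe choice, replicate handling, the fit and each sample left out. The files named no chips or scan dates, so no such batch could be tested.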

Additional observations from a re-analysis of the deposited data

Results flagged for a closer look

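For 3 genes of the family the change with NRG1 differed between CYT2 and vector cells by a direct test of that difference (limma, adjusted over all genes). IL36G changed by 1.98 in CYT2 cells and -0.12 in vector cells, a difference of 2.10 ± 0.34 log2 units (SE, n = 2 per group). IL33 changed by 1.29 in CYT2 cells and -0.14 in vector cells, a difference of 1.43 ± 0.23. IL1B changed by 1.04 in CYT2 cells and -0.08 in vector cells, a difference of 1.13 ± 0.15. For each gene both CYT2 samples with NRG1 lay above both without it, where the groups did not overlap for 48.6% of all genes. No group held the 4 samples needed to look for a single outlying sample.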

How the results depend on the processing

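All called members kept their direction under the 12 alternative settings and when each of the 12 samples was left out. With NRG1 in CYT2 cells the 4 calls fell to 0 when only the compared groups entered the fit, which called 9 genes in all. The 3 calls for the difference of NRG1 changes between CYT2 and vector cells fell to 0 with the authors' uncorrected table, to 1 without the filter, to 1 with technical replicate 1 arrays only, to 0 with technical replicate 2 arrays only, and ranged from 0 to 3 when a sample was left out. The 1 call for CYT1 against vector cells without ligand fell to 0 with the authors' table, median centring, no filter, either technical replicate alone or only the compared groups, and ranged from 0 to 1 when a sample was left out. The 1 call for CYT2 against vector cells with NRG1 fell to 0 with the authors' table, ranged from 0 to 1 when a sample was left out, and became 2 with all 24 arrays and the sample as a random block. That random block also gave 1 call each for NRG1 in CYT1 cells (IL1B), CYT1 against vector cells with NRG1 (IL33) and CYT1 against CYT2 cells without ligand (IL36G), where 0 are reported. In the authors' uncorrected values, 99.6% of all calls for NRG1 in CYT2 cells were higher, against 82.4% as reported, and the median of all genes moved to 0.11. Apart from the smaller fits named, the cause of these changes was not tested. Replicate numbers are shared between groups. The deviations of same-numbered samples correlated at -0.17 to 0.23 over 15 pairs of groups. Between the groups with and without NRG1 of a line, they correlated at 0.18 for CYT2, -0.17 for CYT1 and 0.23 for vector cells. The numbers were not taken to pair samples, and a pairing within each line was not tested. With a replicate block the calls for NRG1 in CYT2 cells were 3, without IL1A, and the member counts of the other comparisons did not change. Low signal over background limits IL36G, IL33, IL1R1 and IL1R2, and among the listed IL-1 targets MMP3, IL6 and MMP1.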
